A study of Mus musculus with 8 samples.

Results

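The Snrpn and Peg3 imprinted domains of mouse chromosome 7 were followed through 8 genes chosen by symbol: Magel2, Ndn, Mkrn3, Snrpn and Ube3a of the Prader-Willi/Angelman region, here called the Snrpn domain, and Peg3, Usp29 and Zim1 of the Peg3 domain. All 8 were found among the 55487 gene rows of the deposited count table, and all 8 passed the filter on low counts. The libraries came from E14-Tg2a, an established mouse embryonic stem cell line, taken on day 6 of a serum-free differentiation towards precardiac mesoderm, with no other treatment named. The parental group held 4 libraries of unmodified cells (genotype WT), and the mutant group held 4 libraries of the derived line 4D (genotype Tbx1-/-). The mutated gene, Tbx1, codes for a transcription factor of the T-box family that acts in pharyngeal and heart-forming mesoderm, and its human counterpart lies in the region deleted in DiGeorge syndrome. Because a single mutant line was used, the genotype and other properties of line 4D cannot be told apart. The labels call the libraries biological replicates without saying whether they were separate differentiations, so p-values measure the spread between these libraries.

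Imprinted genes are transcribed mainly or only from the copy inherited from a particular parent, according to DNA methylation set in the germ line. In the Snrpn domain, Snrpn, Ndn, Magel2, Mkrn3 and the long noncoding transcript Snhg14 are expressed from the paternal copy, and loss of that expression underlies Prader-Willi syndrome. Ube3a is maternally expressed in neurons, where Snhg14 runs antisense across it and silences the paternal copy, and comes from both copies in most other cells. Peg3 and Usp29 are paternally expressed from a shared promoter region, and the neighbouring Zim1 is maternally expressed. The counts do not separate the parental copies, so what follows are total RNA levels.

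Total counts were 3803561 to 6293907 per library. Levels are given as CPM, the library-scaled counts that edgeR gives after TMM normalisation, and QuantSeq counts transcript 3′ ends, so that a count does not grow with transcript length. Tbx1 itself had 39, 65, 38 and 22 counts in parental libraries 1 to 4 and 3, 0, 1 and 0 counts in mutant libraries 1 to 4. The listed precardiac mesoderm and heart field markers summed to 1492 to 1956 CPM in parental and 1470 to 1720 CPM in mutant libraries, against 27.6 to 46.9 and 28.3 to 42.1 CPM for the pluripotency list. Within the heart field list 7 of 11 markers had negative log2 fold changes, with a median of -0.39. An unadjusted p under 0.05 was found for 6 of the 11, against 11.9% of all tested genes. The edgeR test called 0, while DESeq2 and limma-voom each called 1 higher and 2 lower. Without the low-count filter edgeR called 0 higher and 3 lower. Hand2, which had the smallest p, was higher in the mutant line, with a log2 fold change of 0.40 (edgeR adjusted p 0.0513). Mutant library 4 stood apart: its correlations of log2 CPM with the other 7 libraries were 0.857 to 0.881, while the 21 pairs among those 7 lay between 0.920 and 0.944. Listed cardiomyocyte markers also varied widely, from 541 to 3264 CPM in sum in parental libraries and from 74.2 CPM (mutant library 4) to 850 CPM in mutant libraries. All 7 tested cardiomyocyte markers had negative log2 fold changes, with a median of -1.51. An unadjusted p under 0.05 was found for 6 of the 7, against the same 11.9% of all tested genes. None was called by edgeR, DESeq2 or limma-voom, while edgeR called 7 of the 8 listed lower without the low-count filter and 1 without parental library 4.

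The promoter windows of 4 genes are shown. Magel2 and Ndn are close neighbours with unlike estimates of the line difference, neither of them called by edgeR. The transcription unit of Snrpn is continued by Snhg14, and the window of Peg3 also holds the start of Usp29. Each window runs from 250 bases before to 50 bases after a transcription start on GRCm38.p6, is taken from RefSeq and is read along the gene's strand, with every CG dinucleotide, the site of DNA methylation, in capitals. All 8 genes were matched, with 4 windows for Snrpn, which has several starts, and 1 for each other gene; the RefSeq start of Ndn lies inside the longer GENCODE gene.
Magel2 (chr7:62376729-62377028, plus strand): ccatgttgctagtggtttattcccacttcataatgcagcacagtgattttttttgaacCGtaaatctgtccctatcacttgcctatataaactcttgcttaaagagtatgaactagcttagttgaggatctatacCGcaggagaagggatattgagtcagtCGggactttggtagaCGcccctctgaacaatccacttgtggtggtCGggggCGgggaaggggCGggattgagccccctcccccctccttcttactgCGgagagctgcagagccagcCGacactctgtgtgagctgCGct
Ndn (chr7:62348027-62348326, plus strand): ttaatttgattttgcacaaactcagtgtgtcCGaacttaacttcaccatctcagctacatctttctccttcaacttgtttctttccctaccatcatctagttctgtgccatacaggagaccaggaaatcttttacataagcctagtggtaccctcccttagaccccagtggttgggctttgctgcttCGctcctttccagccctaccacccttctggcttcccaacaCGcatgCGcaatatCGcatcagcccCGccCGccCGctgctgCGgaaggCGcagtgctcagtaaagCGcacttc
Snrpn (chr7:60005150-60005449, minus strand): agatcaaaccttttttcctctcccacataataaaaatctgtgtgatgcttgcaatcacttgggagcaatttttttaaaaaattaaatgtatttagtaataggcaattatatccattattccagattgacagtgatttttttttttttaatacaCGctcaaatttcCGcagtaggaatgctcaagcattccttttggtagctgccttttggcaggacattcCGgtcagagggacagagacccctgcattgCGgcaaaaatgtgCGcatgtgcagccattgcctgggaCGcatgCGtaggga
Peg3 (chr7:6730370-6730669, minus strand): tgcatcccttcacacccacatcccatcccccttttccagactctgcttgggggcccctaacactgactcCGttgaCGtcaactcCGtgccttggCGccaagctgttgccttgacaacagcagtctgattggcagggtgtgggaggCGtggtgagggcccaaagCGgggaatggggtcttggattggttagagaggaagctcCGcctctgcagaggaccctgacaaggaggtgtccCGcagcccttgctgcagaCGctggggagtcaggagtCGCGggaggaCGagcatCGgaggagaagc

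The Peg3 window shared 263 of its 300 bases with that of Usp29 on the other strand. The Magel2 and Ndn windows had similar numbers of CG dinucleotides, 10 and 11, and the Peg3 window had 13. The Snrpn window shown had 7, which equals the median of 7 over all 32817 windows, and its other 3 windows had 2 to 4. The Ube3a window had 29, the highest of the 11 windows of these genes. The letters TGCCGC, the core recognised by the imprint-protecting zinc finger protein ZFP57, were found on either strand in 2 of the 11 windows, the Snrpn window shown and that of Zim1, and in 11.6% of all windows. AANATGG, the core bound by YY1, matched 3 of the 11, in Magel2, Mkrn3 and Ube3a, against 16.1% of all windows. AGGTGT, a T-box half-site, matched 3 of the 11, in Peg3 and Usp29 at 1 shared position and in another Snrpn window, against 13.7% of all windows. No window of these genes held more than 1 of the 3 motifs, so no matches overlapped, and a match describes letters only. The AGGTGT search was added after the line differences had been seen.

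Of the 8 genes, 0 passed the edgeR quasi-likelihood test at a Benjamini-Hochberg adjusted p of 0.05, where 1.42% of all 13280 tested genes were called. An unadjusted p under 0.05 was reached by 2 of them, Magel2 and Snrpn, where 11.9% of tested genes reached it. Snrpn did not reach it in the edgeR fit without parental library 1 (unadjusted edgeR p 0.155). DESeq2 called 1 of the 8, Magel2, against 3.29% (1.64% lower) of the 11706 genes to which it gave an adjusted p, and limma-voom called 0. The log2 fold change of mutant against parental libraries was negative for 7 of the 8 genes, with a median of -0.10, beside a median of 0.00 over all tested genes. In absolute size the median was 0.10 for the 8 genes and 0.24 over all tested genes. The signs of Ndn, Ube3a and Mkrn3, among the 7, changed in some fits with 1 library left out. The long noncoding transcript Snhg14, which belongs to the same domain without being among the 8, was lower in the mutant line with an edgeR adjusted p of 0.038.

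**Figure D1:**
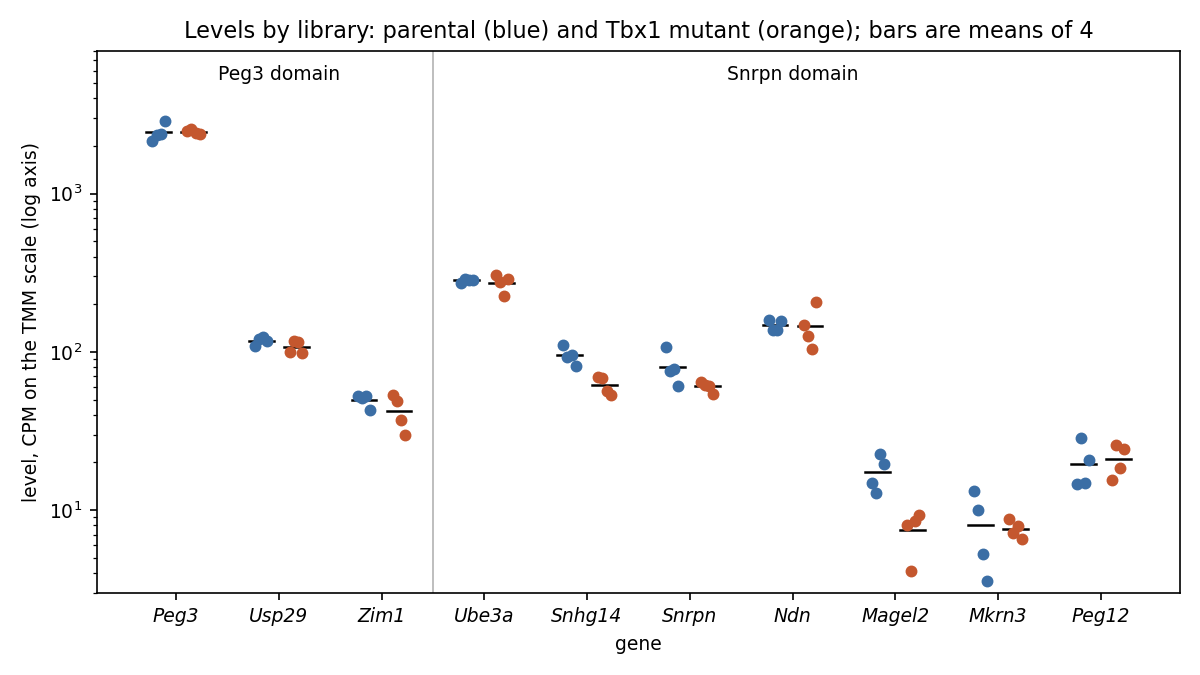
Level of each gene in CPM on a log axis for the 4 parental (blue) and 4 mutant (orange) libraries, with short lines at the means; Peg3-domain genes are on the left and Snrpn-domain genes, with Snhg14 and Peg12, on the right. Peg3 lies at 2141 CPM or above in every library, and the libraries of the lines separate for Magel2 and Snhg14 only among the genes drawn.

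Magel2 encodes a MAGE-family protein that works with a ubiquitin ligase in endosomal recycling. The gene (ENSMUSG00000056972.6, a single-exon protein-coding gene, GRCm38 chromosome 7, 62377010 to 62381640, plus strand) had 14.7, 12.9, 22.5 and 19.6 CPM in parental libraries 1 to 4. The values of mutant libraries 1 to 4 were 8.06, 4.14, 8.54 and 9.35 CPM. Every mutant library was thus below every parental library, a separation found in 7.52% of all tested genes in either direction and in 4.04% with the mutant line lower. The means were 17.4 ± 4.40 and 7.52 ± 2.32 CPM (SD, n = 4 each), a parental level 2.32 times the mutant level.

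The edgeR log2 fold change of Magel2 was -1.21 ± 0.34 (SE), with a 95% interval of -1.92 to -0.50 and an unadjusted p of 0.00203. After Benjamini-Hochberg adjustment over all genes the edgeR p was 0.0892 and missed the threshold. DESeq2 gave nearly the same fold change with an adjusted p of 0.033, the only one of the other settings tried to pass. Without mutant library 4 the edgeR estimate was -1.32 with an adjusted p of 0.0631. The counts behind these values were small, 72 to 141 in parental and 19 to 48 in mutant libraries.

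Ndn (necdin) encodes another MAGE-family protein, a growth suppressor of neurons and mesenchymal progenitors, and lies 26.7 kb from Magel2 (ENSMUSG00000033585.5, 62346569 to 62350262, plus strand). Its parental values were 160, 137, 137 and 158 CPM, and its mutant values 148, 126, 104 and 208 CPM. The mutant range enclosed the parental range, and mutant library 4 gave the highest value of all. The log2 fold change was -0.02 ± 0.17 (SE), with an interval of -0.36 to 0.33 and an edgeR adjusted p of 0.987. Without mutant library 4 it was -0.23 with an edgeR adjusted p of 0.570.

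Mkrn3, a makorin-family RING finger gene whose human counterpart restrains the onset of puberty, lies 36.0 kb beyond Magel2 on the opposite strand (ENSMUSG00000070527.3, 62417593 to 62420139). It had the lowest parental level of the 8 genes, with 13.3, 10.0, 5.27 and 3.58 CPM in the parental and 8.74, 7.19, 7.99 and 6.60 CPM in the mutant libraries. The parental libraries enclosed all mutant libraries. Its log2 fold change of -0.07 ± 0.44 (SE) had an interval of -1.01 to 0.86 and an edgeR adjusted p of 0.975, so a change of up to about 2.01-fold downwards is within the interval. It had 17 to 73 counts per library, with a coefficient of variation of 55.1% among parental and 12.2% among mutant libraries.

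The levels of Magel2 were also set against those of each other gene within each library, since such a ratio does not depend on the scaling between libraries. The log2 ratio of Magel2 to Ndn was -3.11 ± 0.39 in parental and -4.30 ± 0.55 in mutant libraries (SD, n = 4), without overlap. The ratios of Magel2 to Ube3a, Peg3 and Usp29 also separated the lines, with mutant-minus-parental differences of -1.19, -1.26 and -1.12. Each of these 4 pairs had a two-sided exact permutation p of 0.0286, the smallest that 4 against 4 libraries allow, and 0.200 after Benjamini-Hochberg adjustment over the 28 pairs among the 8 genes. Of the 28 pairs, these 4 were the ones whose libraries separated. All 4 hold the same Magel2 values, which separated the lines by themselves, so the ratios are not independent results. The ratio of Magel2 to Snrpn differed by -0.86 with overlapping libraries (exact permutation p = 0.143, adjusted 0.5).

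Snrpn encodes SmN, a core protein of spliceosomal small nuclear ribonucleoproteins that is closely related to the ubiquitous SmB encoded by Snrpb. The gene (ENSMUSG00000102252.5, 59982495 to 60140219, minus strand) had 107, 75.5, 77.7 and 60.5 CPM in the parental and 64.2, 62.1, 61.0 and 54.4 CPM in the mutant libraries. The mutant libraries lay close together below 3 of the 4 parental libraries, and parental library 4 lay within their range. The means were 80.2 ± 19.4 and 60.4 ± 4.21 CPM (SD, n = 4). The log2 fold change was -0.41 ± 0.17 (SE), with an interval of -0.76 to -0.06 and an edgeR adjusted p of 0.322. Without parental library 1, its highest, the estimate was -0.24 (edgeR adjusted p 0.679), and it ranged from -0.52 to -0.24 over the fits that each left out 1 library. Snurf, whose reading frame is carried by the same transcript, was listed at 0 in all libraries, and all 216 of its annotated exon bases are also Snrpn exon. Snrpb, by comparison, stood at 289 ± 12.6 CPM in the parental and 274 ± 16.3 CPM in the mutant libraries (edgeR adjusted p 0.823).

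Snhg14 is the long host transcript that continues from the Snrpn unit, carries clusters of small nucleolar RNAs in its introns and reaches Ube3a in antisense direction (ENSMUSG00000100826.6, minus strand). It had 111, 93.5, 95.3 and 82.0 CPM in the parental and 68.9, 68.2, 56.5 and 53.6 CPM in the mutant libraries. All mutant libraries were below all parental libraries. The means were 95.4 ± 11.98 and 61.8 ± 7.88 CPM (SD, n = 4), a log2 fold change of -0.63 ± 0.15 (SE) with an edgeR adjusted p of 0.038. The call was lost without parental library 1, 2 or 3 or mutant library 3 or 4, with edgeR adjusted p-values of 0.0685 to 0.131, and the estimate stayed between -0.69 and -0.55 over the 8 fits that each left out 1 library. Scaling by library size alone gave -0.60 with an edgeR adjusted p of 0.0732. Of the 31-base words in the last 500 bases of its transcripts, 8.40% also occur in other annotated genes, against 4.82% for Snrpn and 0% for Magel2.

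**Figure D2:**
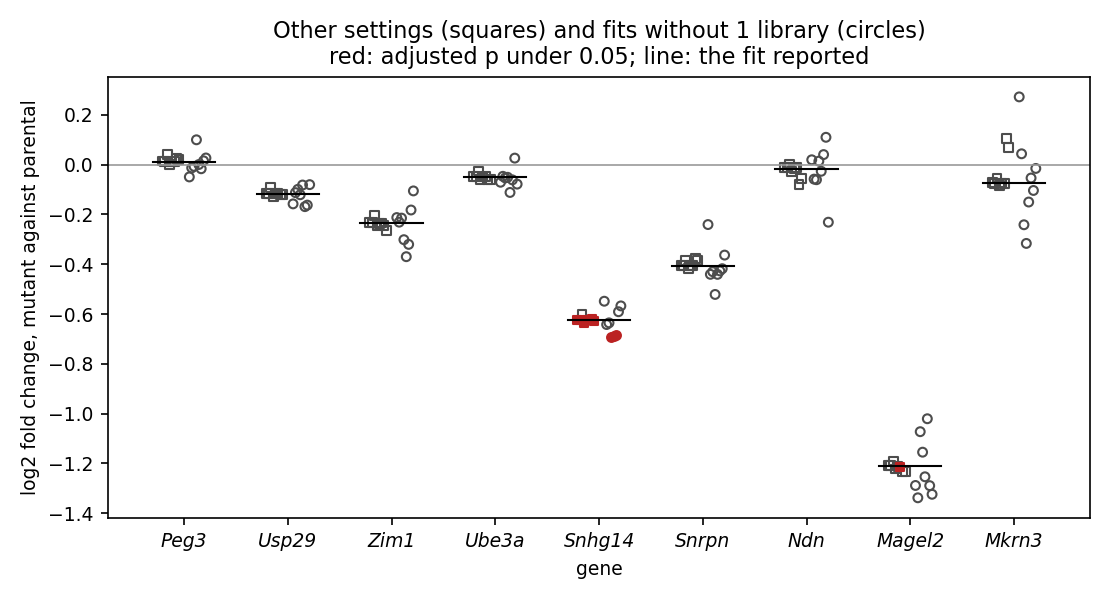
Log2 fold change of each gene under other scalings, filters and tools (squares) and with 1 library left out (circles), with the reported estimate as a line and red marking an adjusted p under 0.05. Magel2 lies between -1.34 and -1.02 and Snhg14 between -0.69 and -0.55 when 1 library is left out, while Mkrn3 crosses 0.

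The Snhg14 and Snrpn values can be read side by side. The log2 ratio of Snhg14 to Snrpn was 0.27 ± 0.16 in parental and 0.03 ± 0.11 in mutant libraries (SD, n = 4), with overlapping libraries and a two-sided exact permutation p of 0.0857. The 2 transcripts were thus at similar levels in CPM in each library, and the change of their ratio between the lines did not pass the test (adjusted 0.129 over the 3 ratios computed for Snhg14). Both had their highest value in parental library 1 and their lowest in mutant library 4, the libraries with the highest and the lowest summed cardiomyocyte markers. The part of the cell makeup in this result was not tested, and in bulk RNA fewer cells of a type and less RNA per cell cannot be told apart.

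Ube3a encodes the E6AP ubiquitin ligase, whose maternal loss in neurons causes Angelman syndrome. The gene (ENSMUSG00000025326.12, 59228750 to 59311536, plus strand) had 273, 289, 287 and 284 CPM in parental libraries, the tightest parental group of the 8 genes with a coefficient of variation of 2.45%. Mutant libraries had 305, 275, 225 and 289 CPM and lay on both sides of the parental values. The log2 fold change was -0.05 ± 0.11 (SE), with an interval of -0.28 to 0.18 and an edgeR adjusted p of 0.914. The log2 ratio of Snhg14 to Ube3a was -1.58 ± 0.21 in parental and -2.15 ± 0.20 in mutant libraries (SD, n = 4) and did not overlap, with a two-sided exact permutation p of 0.0286 and 0.0857 after Benjamini-Hochberg adjustment over the same 3 ratios. The annotated exons of Snhg14 share 6.91% of their bases with Ube3a exons on the opposite strand, so that the separation of the genes rests on the forward-strand counting named by the deposited table.

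**Figure D3:**
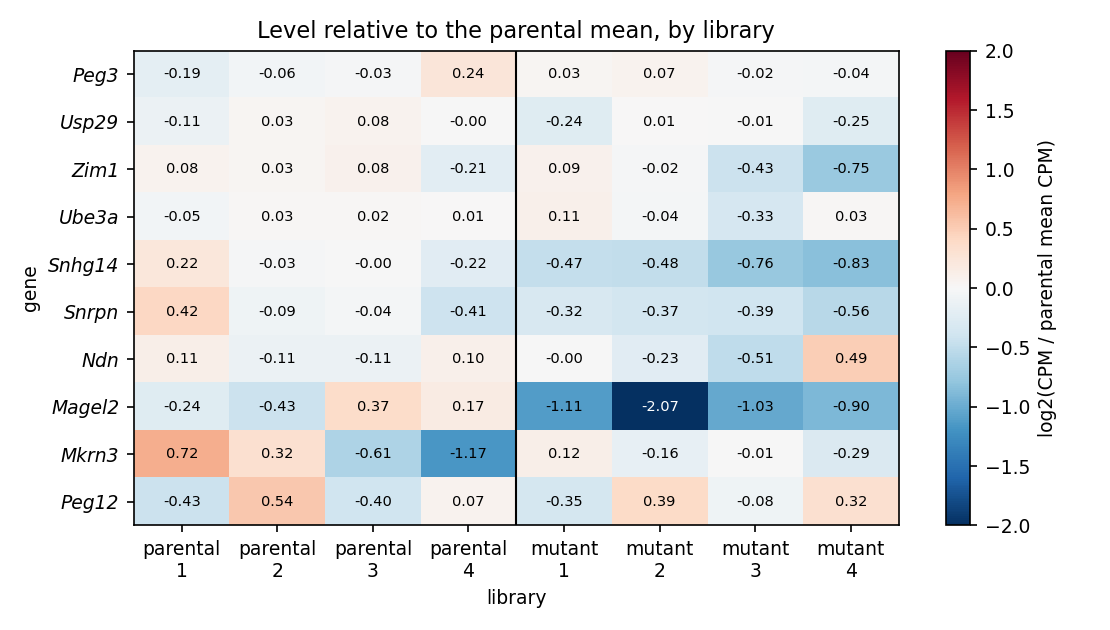
Log2 of each gene's CPM over its parental mean, by library, from 10 genes of both domains; blue is lower and red higher. Magel2 lies between -2.07 and -0.90 and Snhg14 between -0.83 and -0.47 in the 4 mutant libraries, while Mkrn3 spans 0.72 to -1.17 within the parental libraries.

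Peg3 encodes a large Krüppel-type zinc finger protein with roles in growth and stem cell maintenance, and was by far the most abundant of the 8 genes (ENSMUSG00000002265, 6703892 to 6730431, minus strand). Parental libraries had 2141, 2344, 2387 and 2884 CPM and mutant libraries 2496, 2564, 2404 and 2375 CPM. All 4 mutant values lay within the parental range. The means were 2439 ± 315 and 2459 ± 86.5 CPM (SD, n = 4), which placed Peg3 at rank 16 among the 13280 tested genes by mean CPM. Its line difference on the log2 scale was 0.01 ± 0.09 (SE), with the narrowest interval of the 8 genes, -0.17 to 0.20, and an edgeR adjusted p of 0.980.

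Usp29 encodes a ubiquitin-specific protease and starts 0.146 kb from Peg3 in the opposite direction (ENSMUSG00000051527.11, 6730578 to 6967219, plus strand). Its values were 108, 120, 124 and 117 CPM in the parental and 99.1, 118, 116 and 98.7 CPM in the mutant libraries. Mutant libraries 1 and 4 were below all parental libraries, and mutant libraries 2 and 3 were among them. The mutant-minus-parental difference was -0.12 ± 0.12 on the log2 scale (SE), with an interval of -0.37 to 0.14 and an edgeR adjusted p of 0.773. From the shared promoter region Peg3 reached a much higher level than Usp29 in every library, with a log2 ratio of 4.37 ± 0.17 in parental and 4.51 ± 0.13 in mutant libraries (SD, n = 4; two-sided exact permutation p = 0.200, adjusted 0.582 over the 28 pairs).

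Zim1, an imprinted zinc finger gene 7.44 kb from the 3′ end of Peg3 (ENSMUSG00000002266.17, 6671269 to 6696450, minus strand), had 52.5, 51.0, 52.8 and 43.0 CPM in parental libraries. In mutant libraries 1 to 4 it had 53.1, 49.0, 37.1 and 29.7 CPM. The lines overlapped, and the lowest value belonged to mutant library 4. The log2 fold change was -0.24 ± 0.19 (SE), with an interval of -0.64 to 0.17 and an edgeR adjusted p of 0.701. Without mutant library 4 it was -0.11 (edgeR adjusted p 0.893) and without mutant library 1 it was -0.37 (0.534), the ends of its range with 1 library left out. The other listed Peg3-domain transcripts Zim3 and Zfp264 were listed at 0 in all 8 libraries, and Zim2 had 1 count in a single mutant library. A count of 0 allows up to 3 counts, or 0.479 to 0.825 CPM in these libraries, for counting error only.

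**Figure D4:**
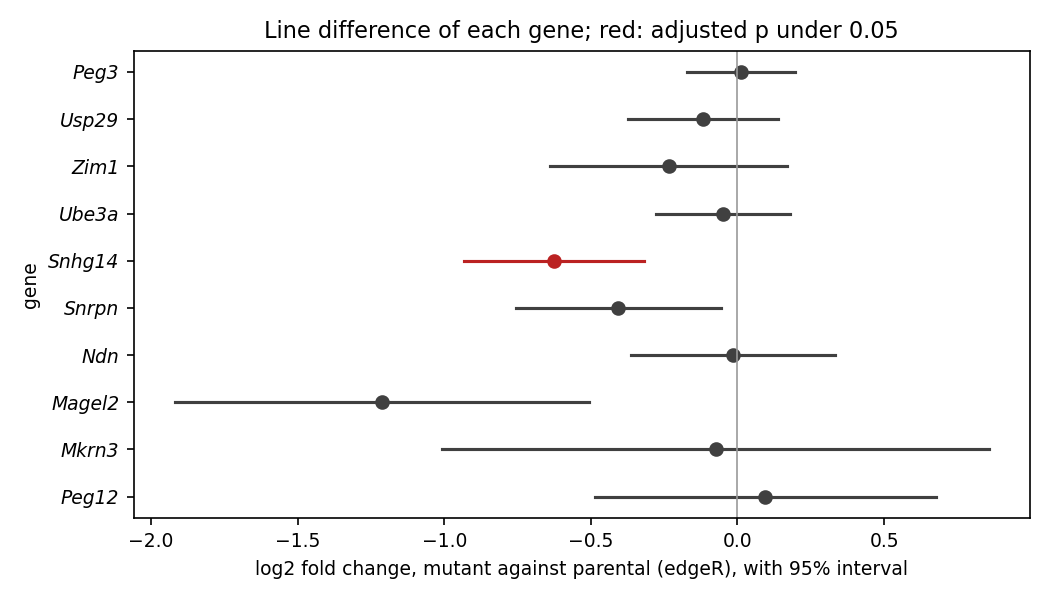
Log2 fold change of mutant against parental libraries with its 95% interval from edgeR for 10 genes of both domains, with red marking an adjusted p under 0.05. Snhg14 is the red gene, at -0.63; the intervals of Magel2 (-1.92 to -0.50) and Snrpn (-0.76 to -0.06) also lie below 0 but are not adjusted for the number of genes tested.

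In parental libraries the order of levels in CPM was Peg3, Ube3a, Ndn, Usp29, Snrpn, Zim1, Magel2 and Mkrn3. Neighbours in this order did not overlap in any library except Magel2 and Mkrn3. Peg3 stood 8.61 times above Ube3a, the next gene. In mutant libraries the order was the same up to the last pair, where Mkrn3 and Magel2 were at 7.63 and 7.52 CPM with overlapping values, and Ndn and Usp29 overlapped as well. The 5 genes of the Snrpn domain summed to 537 ± 20.9 CPM in the parental and 496 ± 70.7 CPM in the mutant libraries, and the 3 of the Peg3 domain to 2606 ± 313 and 2610 ± 100.2 CPM (SD, n = 4).

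Other genes of the domains and of their pathways were taken from 9 lists of 87 genes, of which 82 were found and 70 tested. Of these 70, 0 were called higher and 1, Snhg14, was called lower by edgeR, against 0.745% and 0.67% of all tested genes. An unadjusted p under 0.05 was found for 7 of the 70, where 11.9% of all tested genes reached it. DESeq2 and limma-voom each called Snhg14 alone, and the median log2 fold change of the 70 was 0.03. Peg12, a paternally expressed gene beyond Mkrn3 that is related to the Wnt regulator Frat1, had 19.6 ± 6.56 CPM in the parental and 21.04 ± 4.87 CPM in the mutant libraries (SD, n = 4; edgeR adjusted p 0.941). Atp10a, a phospholipid flippase gene on the Ube3a side, was near the lower limit with at most 19 counts in any library.

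Genes beside the imprinted cluster that are expressed from both copies in most tissues gave 0 calls of 7 tested. The one with the smallest p was Herc2, a large ubiquitin ligase gene that partners UBE3A, with 108 ± 12.2 CPM in the parental and 133 ± 13.5 CPM in the mutant libraries (SD, n = 4). Its libraries did not overlap, as for 3.49% of tested genes with the mutant line higher, but its log2 fold change of 0.30 ± 0.13 (SE) had an edgeR adjusted p of 0.347. Between Ube3a and Mkrn3 the annotation holds 260 other genes, mostly small RNA genes, of which 6 were tested. Within 2 Mb of the Snrpn domain 15 other genes were tested, 9 of them with negative fold changes, and Snhg14 was the single call. The other gene there with an unadjusted p under 0.05 was Mcee, a methylmalonyl-CoA epimerase gene, at -0.75 (edgeR adjusted p 0.302). Around the Peg3 domain 30 others were tested and 0 were called (0 with an unadjusted p under 0.05), with a median log2 fold change of -0.10. The smallest edgeR adjusted p there was 0.499, for the chloride transporter gene Clcn4 at -0.37.

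**Figure D5:**
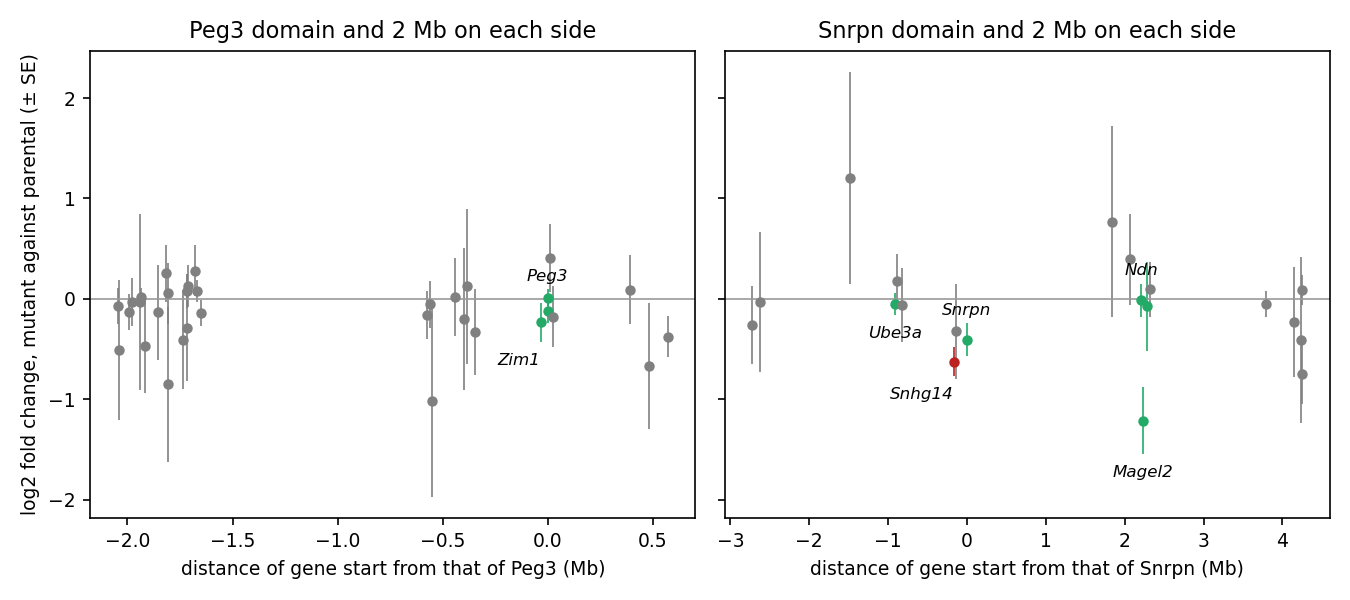
Log2 fold change (± SE) of tested genes against the distance of their start from that of Peg3 (left) or Snrpn (right), in Mb; green marks members of the 8 genes, red a called gene and grey all others. Snhg14 lies next to Snrpn, and Magel2 at -1.21 lies beside Ndn at -0.02.

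Genes that keep imprints or set DNA methylation gave 0 calls of 16 tested, with a median log2 fold change of -0.03. The smallest p belonged to the de novo DNA methyltransferase gene Dnmt3b, with 100 ± 2.33 CPM in the parental and 76.6 ± 14.7 CPM in the mutant libraries (SD, n = 4; edgeR adjusted p 0.246). Of Sm core and SMN complex genes, the assembly partners of SmN, 0 of 14 were called. Gemin7, an SMN complex subunit, came closest with 26.9 ± 7.75 CPM in the parental and 45.1 ± 5.96 CPM in the mutant libraries (SD, n = 4; log2 fold change 0.75, edgeR adjusted p 0.116). It was called without the low-count filter, where 439 genes passed.

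MAGE genes other than Magel2 and Ndn, with TRIM27, retromer and related genes of endosomal sorting, gave 0 calls of 15. Their median log2 fold change was 0.06, with Maged2 closest at 0.29 (edgeR adjusted p 0.333). The makorins Mkrn1 and Mkrn2 were not called, with Mkrn2 at 0.67 ± 0.30 (SE; edgeR adjusted p 0.377). Partners and reported substrates of UBE3A gave 0 of 10, and PEG3 partners 0 of 6, the closest being the ubiquitin ligase gene Siah1b at 0.38 (edgeR adjusted p 0.567).

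Neural markers were measured because Magel2, Snrpn and Snhg14 are best known from neurons. Of the 14 listed, 9 were tested and 0 called by edgeR, DESeq2 or limma-voom. An unadjusted p under 0.05 was found for 1 of the 9, against 11.9% of all tested genes. Log2 fold changes were negative for 7 of the 9, with a median of -0.64, beside 0.00 over all tested genes. Of the 14, 2, Neurog2 and Dcx, had no more than 3 counts in any library. The summed level of the neural list was 70.2 to 98.6 CPM in parental and 46.4 to 81.3 CPM in mutant libraries, with overlap. Stmn2, a neuronal microtubule regulator, had 18.2 ± 4.63 CPM in the parental and 8.62 ± 5.68 CPM in the mutant libraries (SD, n = 4; edgeR adjusted p 0.263). Listed mesenchyme and fibroblast markers summed to 914 to 1375 CPM in parental and 1979 to 2498 CPM in mutant libraries, and endothelial and primitive blood markers to 310 to 485 and 839 to 1315 CPM. Definitive endoderm and epithelium markers summed to 189 to 317 and 153 to 216 CPM. In the edgeR test 4 of 7 tested mesenchyme and 3 of 9 endothelial and blood markers were called higher, against 0.745% of all tested genes. Those 3 were the globin genes Hba-x, Hbb-bh1 and Hbb-y (log2 fold changes 2.96, 2.00 and 3.78), and no endothelial gene of the list was called. Of 5 tested endoderm markers 2, Foxa2 and Krt18, were called lower, against 0.67% of all tested genes. The endoderm calls were 1 by limma-voom and 0 without parental library 1 or 2 or mutant library 3. The part of these marker levels, and of the cardiomyocyte markers above, in the Magel2 and Snhg14 values was not tested.

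For the 7 genes with a mean of at least 10 CPM, the genes with the most similar course over the 8 libraries were sought among 9025 others by Pearson correlation of log2 CPM. Magel2 was most like Tjp1 (0.93), Adal (0.92) and Magi1 (0.92), of which Tjp1 and Magi1 encode scaffold proteins of cell junctions. Snrpn was most like Lcmt1, Ppfia4 and Ccdc80 (0.96, 0.96 and 0.95), and Ndn like Gsdme, Chm and Ctps (each 0.97). Usp29 was most like Pyurf, Mtcl1 and Ube2n (0.96, 0.95 and 0.95), and Zim1 like Fbxo6, Pcbp4 and Pik3ip1 (0.99, 0.98 and 0.97). None of the genes so named belongs to the 8. The 8 libraries differed in depth and in marker levels, and the best of 9025 were taken, so such values describe these libraries only.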

How the data were processed

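The data are QuantSeq 3′-end RNA libraries, 4 parental and 4 mutant, grouped by their genotype labels. The authors deposited 1 table of whole-number gene counts, whose name states forward-strand counting. STAR, featureCounts and mm10 are named per the submitters' processing notes. Their settings and versions are not given in the sources used here.

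Gene identifiers were matched to GENCODE M21 (GRCm38): 54435 of 55487 matched with version and 55227 received a symbol. The 13280 genes kept by edgeR's filterByExpr held 99.5% of the counts. Line differences came from edgeR 4.0.16 (TMM, quasi-likelihood test, R 4.3.3) with Benjamini-Hochberg adjustment over all tested genes and a threshold of 0.05. Ratios were compared by two-sided exact permutation over all 70 assignments. The fit was tested on simulated counts. DESeq2 1.42.0, limma-voom (limma 3.58.1), 3 other scalings, 2 other filters, a replicate block and each library left out were the alternatives.

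The members and lists were chosen with earlier results of these data known. The rule for naming covered the 8 genes, Tbx1, tested genes of the domains, and from each list up to 3 called genes or the one with the smallest p. Snrpb, Mkrn1, Clcn4, Mcee, the untested domain transcripts and the 2 neural markers near 0 fall outside this rule and were named after their values were seen. Marker lists are given mainly as sums and counts, and the genes that the rule picked from the mesenchyme, cardiomyocyte and pluripotency lists are not named. Likeness used log2 CPM with a prior count of 2 and the 3 highest correlations per gene. Those of Peg3 and Ube3a are not reported here. Replicate pairs within a line differed by more than counting noise (chi-square per degree of freedom 7.04 to 24.2 over 12 pairs), so none was merged.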

Additional observations from a re-analysis of the deposited data

How the results depend on the processing

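All log2 fold changes here are mutant against parental. DESeq2 called Magel2 (-1.21, adjusted p 0.033), and so 1 of the 8 genes, where edgeR called 0. With 1 library left out Magel2 ranged from -1.34 to -1.02, with edgeR adjusted p-values of 0.0631 to 0.293. Scaling by library size alone ended the Snhg14 call (-0.60, edgeR adjusted p 0.0732) and turned Ndn to 0.00188. It left 0 genes of the 9 domain and pathway lists called lower, while 2 listed endoderm markers were still called lower. It also raised the share of higher calls from 52.7% to 63.7%, of 157 genes. With 1 library left out Snhg14 ranged from -0.69 to -0.55, and the genes called lower on those 9 lists from 0 to 1. The losses came without parental library 1, 2 or 3 or mutant library 3 or 4. Estimates near 0 changed sign: Ndn ranged from -0.23 to 0.11, Mkrn3 from -0.32 to 0.27, Ube3a from -0.11 to 0.0262 and Peg3 from -0.0494 to 0.0998 with 1 library left out, and limma-voom gave 0.10 for Mkrn3. Snrpn, Usp29 and Zim1 kept a negative sign under every alternative run and were never called. All-gene calls were 188 by edgeR, 385 by DESeq2, 252 by limma-voom and 103 to 235 with 1 library left out, lowest without parental library 2. Without the low-count filter edgeR called 439, with 1 gene of the 9 domain and pathway lists, Gemin7, called higher. Correlations of the deviations of same-numbered libraries were -0.03 to 0.10 over 4 pairs, against -0.08 to 0.06 for other numbers. The highest of all, 0.102, was that of the pair numbered 1. No label states that same-numbered libraries were run together, so the numbers were not taken as pairs. With a replicate block in the edgeR model 234 genes were called, Mkrn3 stood at 0.0685, and no call among the 8 genes or Snhg14 changed. Cardiomyocyte markers called lower then numbered 4, against 0 by edgeR without the block. Counts were lowest for Mkrn3 and Magel2, at 17 to 73 and 19 to 141 per library, and whether depth or replicate spread limits them was not tested.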
